A study of Elaeis guineensis with 38 samples.

Results

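In leaf chromatin of oil palm, 312 of 5888 merged peak regions were wide regions of H3K4me3 with little H3K27me3 in normal palms. They were chosen from the deposited peak lists as follows. Peaks of all 19 lists that shared at least 1 bp were merged. A merged region was kept when it held a peak in at least 3 of the 5 normal H3K4me3 lists and in at most 1 of the 5 normal H3K27me3 lists, and when it was at least 1000 bp wide. The normal-palm peaks and the merged width therefore chose these regions, and their values in normal palms are given as a description.

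Chromatin immunoprecipitation with sequencing was carried out on leaf (frond 0) of clonal Elaeis guineensis palms that all descend from a single mother palm. The mantled-fruit group comprised palms 687, 754, 765 and 770 for H3K4me3 and these with palm 673 for H3K27me3. The normal-fruit group comprised palms 753, 758, 764, 767 and 768 for both marks. Each of the 19 immunoprecipitated libraries has its own input library of chromatin that was not immunoprecipitated, and each palm is a separate plant of the same clone. The labels give no age, no treatment and no transgene for either group, and all palms share the mother palm's genotype as far as the labels say. Fruit phenotype was scored on fruit while chromatin came from leaf, so the tissue with the abnormality was not the tissue measured.

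H3K4me3, trimethylation of lysine 4 of histone H3, sits at the starts of active genes, and it spreads over a broader stretch at some strongly and steadily transcribed ones. H3K27me3, trimethylation of lysine 27, is deposited by Polycomb proteins and marks silenced genes, in plants often across whole gene bodies. Some palms propagated through tissue culture are mantled: their stamens develop as carpel-like organs and the fruit is misshapen. In leaf, a mixture of cell types, fewer cells that carry a mark and less of the mark per cell cannot be told apart, and peaks of both marks at a region need not come from the same cells.

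The wide regions were 1003 to 9115 bp, with a median of 1500.5 bp and quartiles of 1194 and 1962.75 bp, and covered 558607 bp in all. By comparison, 366 regions passed the same rule on marks but were under 1000 bp (narrow regions, median 582.5 bp), and the median of all merged regions was 473 bp. Of the wide regions, 74 reached 2000 bp and 25 reached 3000 bp. They lay on 289 numbered scaffold pieces of 243 scaffolds, of which 194 scaffolds held 1 wide region and the richest held 6. A wide region began within 200 bp of the start of its piece in 46 cases (14.7%), against 45 of the narrow regions (12.3%) and 9.44% of all merged regions. No gene annotation on these pieces was used here, so the regions are named by piece and position.

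The thresholds divided a continuum. Just inside the width limit stood p5.00_sc00289_p0007 from 2 to 1004, p5.00_sc02926_p0001 from 13245 to 14247 (1003 bp each) and p5.00_sc01442_p0001 from 96 to 1099 (1004 bp). Just outside stood p5.00_sc00006_p0146 from 6160 to 7158 (999 bp), p5.00_sc00795_p0001 from 102 to 1095 (994 bp) and p5.00_sc00726_p0002 from 9591 to 10580 (990 bp). From 1000 to under 1100 bp there were 41 wide regions, and from 900 to under 1000 bp there were 39 narrow ones. On the H3K4me3 side, 224 wide regions had exactly 3 normal palms, and 166 further regions of this width had 2 and fell outside. On the H3K27me3 side, 85 wide regions had 0 normal palms and 227 had 1, and 151 further regions of this width with H3K4me3 in at least 3 normal palms had H3K27me3 in 2.

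Several libraries stood apart or went against their labels, and libraries are named here by their labels. Depth was uneven, at 229258 to 10374962 fragments per immunoprecipitated library, and inputs held 7091506 to 13325762. At 205 regions chosen the opposite way (H3K27me3 in at least 3 normal palms, H3K4me3 in at most 1), the library labelled H3K4me3 of mantled palm 754 had peaks at 91.7%, while the library labelled H3K27me3 of the same palm had peaks at 12.2%. The libraries labelled H3K27me3 of mantled palms 765 and 673 had peaks at 13.2% and 26.3% of those regions, and that of normal palm 768 at 15.6%. The H3K4me3 library of normal palm 758, the deepest of its mark, had peaks at 62.4% of them. The library labelled H3K4me3 of mantled palm 770 had peaks at 38.5%, and that labelled H3K27me3 of the same palm at 86.3%. The difference between marks and the share of regions with H3K27me3 in mantled palms are given below with and without some of the mantled palms that stood apart.

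**Figure D1:**
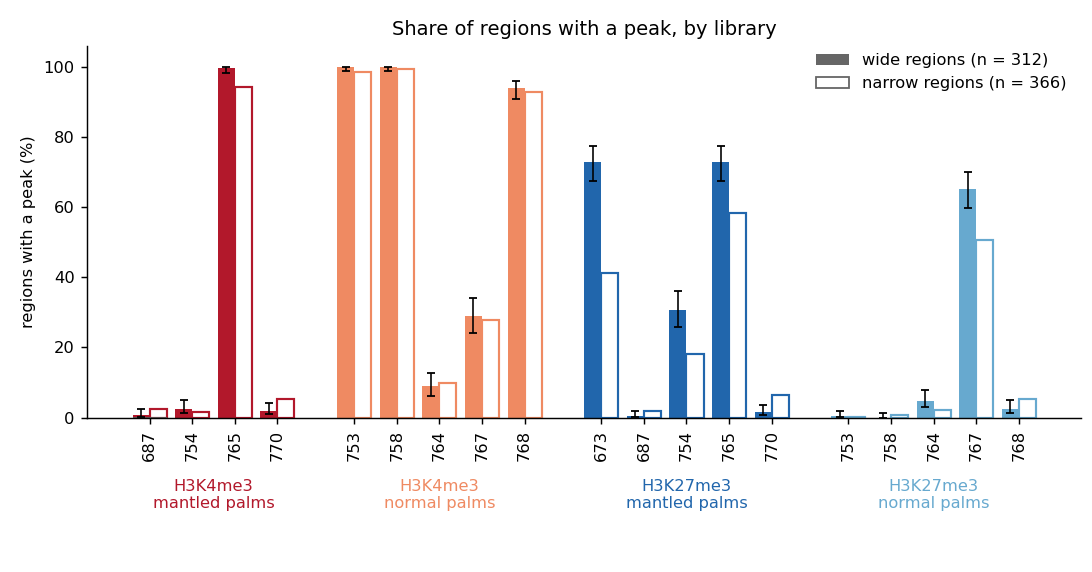
Percentage of regions with at least 1 peak (y axis) in each library (x axis, by palm), for the 312 wide regions (filled bars, with Wilson 95% intervals that cover counting error only) and the 366 narrow regions (open bars). H3K4me3 of mantled palm 765 stands at 99.7% while the other 3 mantled palms lie under 3%, and H3K27me3 is frequent in mantled palms 673, 765 and 754 and in normal palm 767.

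H3K4me3 at the wide regions was present almost everywhere in 1 mantled palm and almost nowhere in the other 3. The mantled libraries were not read by the rule on marks, although their peaks entered the merging and the width. In mantled palm 765 a peak was found at 311 of the 312 wide regions (99.7%, Wilson 95% interval 98.2 to 99.9%). In mantled palms 754, 770 and 687 a peak was found at 8 (2.56%), 6 (1.92%) and 2 (0.641%) of them. These 3 libraries labelled H3K4me3 had peaks at a larger share of the 205 regions chosen the opposite way, at 91.7%, 38.5% and 6.34%. The 4 mantled palms thus did not form a common level, and their mean of 26.2% ± 49.0 (SD, n = 4) describes none of them.

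In the normal palms, whose peaks chose the regions, H3K4me3 was present at all 312 wide regions in palms 753 and 758, at 293 (93.9%) in 768, at 90 (28.8%) in 767 and at 28 (8.97%) in 764. The mean was 66.3% ± 43.9 (SD, n = 5). All 293 regions of palm 768 were also marked in 753 and 758, and mantled palm 765 had a peak at each of these 293. Regions marked in 765, 753, 758 and 768 and in no other H3K4me3 library made up 200 of the 312, and a further 62 added palm 767. The mantled and normal palms overlapped, since 765 ranked among the highest normal palms and 764 among the low ones.

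Fragment number and these shares went together in part. Normal palm 764 held 1683525 H3K4me3 fragments and palm 768 held 1331454, yet 8.97% and 93.9% of the wide regions were marked. Mantled palm 770, with 783650 fragments, and mantled palm 754, with 534988, had fewer marked regions than normal palm 767, with 302016. Mantled palm 765 (3670206) and normal palm 753 (3544422) had similar depth and similar shares. Mantled palm 687 was the shallowest, at 229258 fragments. The part of depth in these shares was not tested.

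H3K27me3 peaks were few at these regions in 2 of the 5 mantled palms and in 4 of the 5 normal palms, where the rule itself kept them few. Among mantled palms, H3K27me3 peaks were found at 227 wide regions (72.8%) in palm 673, at 227 (72.8%) in 765, at 96 (30.8%) in 754, at 5 (1.60%) in 770 and at 1 (0.321%) in 687. The mean was 35.6% ± 36.0 (SD, n = 5). The libraries labelled H3K27me3 of palms 673, 765 and 754 thus had peaks at many of these regions, and those of 770 and 687 at few. At the 205 regions chosen the opposite way the order was reversed. There 673, 765 and 754 had peaks at 26.3%, 13.2% and 12.2%, against 86.3% in 770 and 46.3% in 687.

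In normal palms the rule allowed H3K27me3 in at most 1 list. The shares were 65.1% (203 regions) in 767, 4.81% (15) in 764, 2.56% (8) in 768, 0.321% (1) in 753 and 0 of 312 in 758. The count of 0 allows up to 0.962% by counting error alone, which leaves out that the rule held these counts down. The 1 allowed list was that of palm 767 at 203 of the 227 regions that had one. The normal mean was 14.6% ± 28.3 (SD, n = 5), and palm 767 lay far above the others. Counted over all 10 libraries, 297 of the 312 regions (95.2%) had an H3K27me3 peak in at least 1, and 284 (91.0%) had one in at least 1 mantled palm. With the regions chosen again without mantled palm 673 or 765, that share was 81.3% or 84.6%. In at least 3 of the 5 mantled palms it was present at 77 (24.7%). With only peaks of fold enrichment 3 or more, which left 81 wide regions, the share with H3K27me3 in at least 1 mantled palm was 11.1%. Fold enrichment is the caller's ratio of stacked fragments to the local background, and for H3K27me3 it is an average over a broad peak, which seldom reached 3 at these regions.

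The regions with H3K27me3 in different palms overlapped in part. Peaks of 673, 765 and 767 coincided at 138 wide regions, and 70 of these had no other H3K27me3 library while a further 65 also had 754. Of the regions with H3K27me3 in mantled palm 673, 76.7% had it in 765, 68.7% in 767 and 40.1% in 754, against 72.8%, 65.1% and 30.8% of all wide regions in the same libraries. Only 17 regions had it in none of these 4 libraries. These shares describe the regions and were not tested, since the regions share their libraries and depths.

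**Figure D2:**
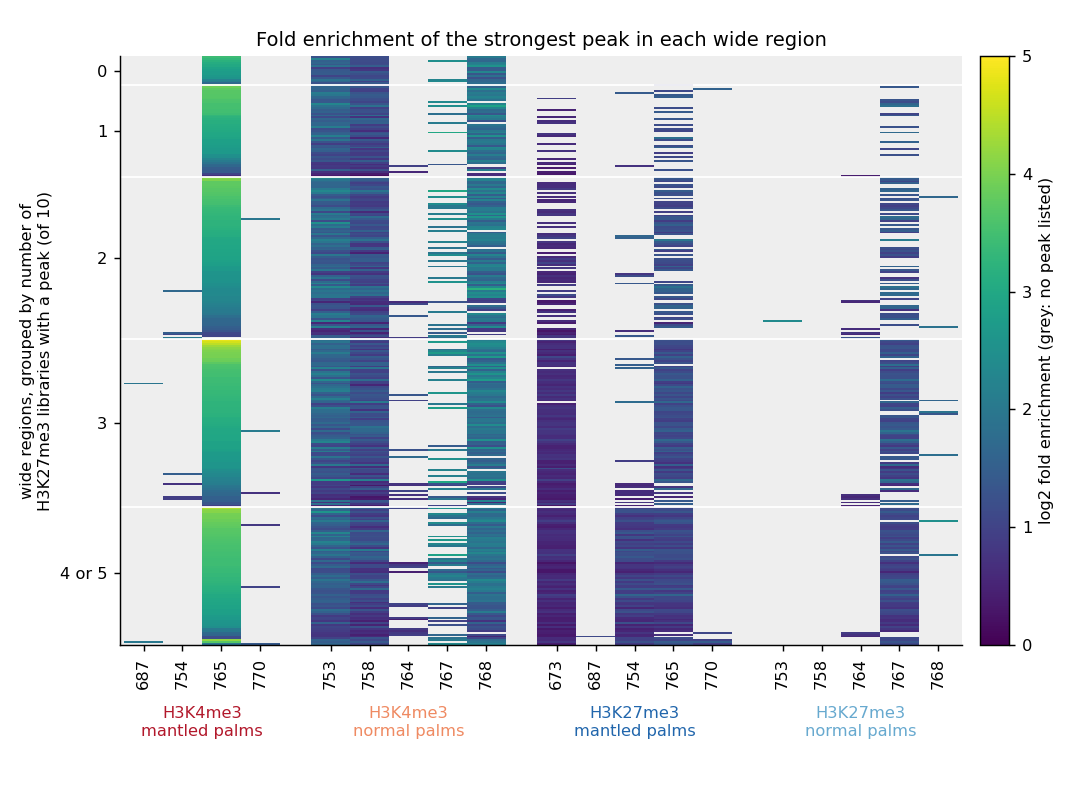
log2 fold enrichment of the strongest peak (color) for each of the 312 wide regions (rows) in each of the 19 libraries (columns, by palm), grouped by the number of H3K27me3 libraries with a peak and ordered within a group by palm 765. Colors are brightest in the H3K4me3 column of mantled palm 765 and darkest in the H3K27me3 column of mantled palm 673, and the 15 regions in the top group have no H3K27me3 peak.

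Between the marks, the mantled palms gave no difference past its test. The percentage of wide regions with a peak averaged 26.2% for H3K4me3 and 35.6% for H3K27me3, a difference of -9.44 percentage points (two-sided exact permutation p = 0.762 over 126 splits, smallest possible p 0.00794, n = 4 and 5). Mantled peaks of both marks helped to set the width of these regions, so nothing is drawn from this p-value. With the normal lists alone merged, where mantled peaks set no width, the difference was -11.9 points over 155 regions (exact permutation p = 0.698). The libraries of the same palm can be paired by the labels. Within the 4 mantled palms that have both marks, the mean difference was -0.160 points, with H3K4me3 the more frequent in 3 of 4 (exact sign-flip p = 1, smallest possible p 0.125). H3K4me3 against H3K27me3 peaks lay at 311 against 227 regions in 765, 6 against 5 in 770 and 2 against 1 in 687. Palm 754 went the other way, at 8 against 96, so the mean is of large opposite values in 765 and 754. Without mantled palm 765 the difference was -27.3 points (exact permutation p = 0.429), without 673 it was -1.30 (exact permutation p = 0.914), and without 754, whose labels its peaks went against, it was -2.81 (exact permutation p = 0.971).

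Region by region, Fisher's exact test on presence gave no call in any of the 3 contrasts after Benjamini-Hochberg adjustment. With so few libraries, even full separation of a region gives a p too large to pass adjustment unless very many regions share it. The adjustment ran over 3456 or more regions, so counts of 0 were likely beforehand and nothing is drawn from them. For H3K4me3 in mantled against normal palms, 0 of 312 wide regions passed, beside 0 of 5191 merged regions tested (0%, smallest adjusted p = 0.933, Fisher's exact test). At an unadjusted p under 0.05, 9 wide regions (2.88%) were lower in mantled palms, beside 40 of 5191 (0.771%), and none was higher, beside 4 (0.0771%). The rule read the normal side of this contrast, so nothing is drawn from these counts. For H3K27me3 in mantled against normal palms, 0 of the 297 wide regions tested passed, beside 0 of 3456 (0%). At an unadjusted p under 0.05 there were 0 wide regions, beside 3 merged regions (0.0868%), all lower in mantled palms. The rule allows H3K27me3 in at most 1 normal palm, so no wide region could have been lower in mantled palms at that level, and nothing is drawn from this count. For H3K4me3 against H3K27me3 in mantled palms, 0 of 312 passed, beside 0 of 4845 (0%), with 0 wide regions at an unadjusted p under 0.05 beside 3 merged regions with H3K27me3 the more frequent (0.0619%).

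The share of wide regions with H3K4me3 lay within 5.42 percentage points of that of narrow regions in each mantled library. Mantled palm 765 marked 99.7% of wide and 94.3% of narrow regions, 754 marked 2.56% and 1.64%, 770 marked 1.92% and 5.19%, and 687 marked 0.641% and 2.46%. The mean difference was 0.31 percentage points, with 2 of 4 palms higher at wide regions. The peaks counted helped to set the width, since the longest peak of a region was that of 765 at 196 of the 312, so this difference is given with no test. With the normal lists alone merged, where mantled peaks set no width, it was -0.19 (two-sided exact sign-flip p = 0.875, smallest possible p 0.125, 4 palms).

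H3K27me3 was more frequent at wide than at narrow regions in 3 of the 5 mantled palms. The shares were 72.8% of wide and 41.3% of narrow regions in 673, 72.8% and 58.2% in 765, and 30.8% and 18.0% in 754. In 770 they were 1.60% and 6.56%, and in 687 they were 0.321% and 1.91%. The mean difference was 10.4 points. It is given with no test, because an H3K27me3 peak was the longest peak at 112 of the 312 wide regions (53 of them in 673 and 27 in 765), so that the mark counted helped to make regions wide. The wide regions are also the longer targets, with medians of 1500.5 and 582.5 bp. With the normal lists alone merged, where mantled peaks set no width, the mean difference was 9.79 points (two-sided exact sign-flip p = 0.25, smallest possible p 0.0625), and no result of 5 palms could pass a threshold of 0.05.

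**Figure D3:**
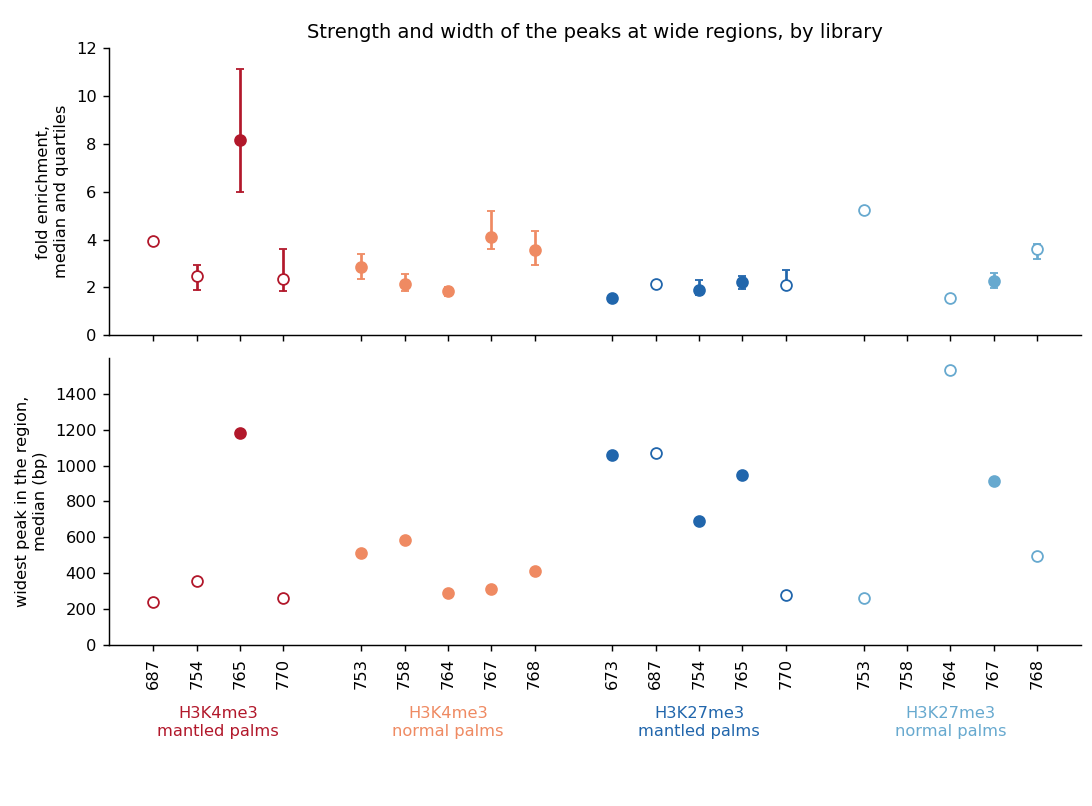
Median fold enrichment of the strongest peak with quartiles (top) and median length of the widest peak in bp (bottom) at the wide regions with a peak, by library. Open points rest on fewer than 20 regions. H3K4me3 of mantled palm 765 has a median of 8.18 and 1183 bp, above the H3K4me3 library of each normal palm.

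Peaks at the wide regions were stronger and longer in mantled palm 765 than in any normal palm. This is a description with no test, since the normal peaks and the merged width chose the regions. The median fold enrichment of the strongest H3K4me3 peak was 8.18 in 765 (quartiles 5.97 and 11.1, highest 28.1), against 2.86 in normal palm 753, 2.16 in 758, 3.58 in 768, 4.12 in 767 and 1.83 in 764. At 301 of 311 shared regions the value in 765 exceeded that in 753, a palm of similar depth, with a median ratio of 2.85. It exceeded that in 758 at 308 of 311 (median ratio 3.75) and that in 768 at 277 of 293 (median ratio 2.45). The direction was the same outside the wide regions. The median ratio to 753 was 2.54 at 340 narrow regions, and it was 1.67 at 224 regions with both marks in at least 3 normal palms each.

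The background in the ratio moved with it. The local background at the strongest peak, expressed as a multiple of the library's average at the caller's genome size, had a median of 2.84 in mantled palm 765, against 6.83 in normal palm 753, 12.2 in 758, 6.74 in 768, 8.50 in 767 and 40.0 in 764. Region by region the background in 765 was 0.357 times that in 753. The part of the background in the higher ratio was not tested.

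**Figure D4:**
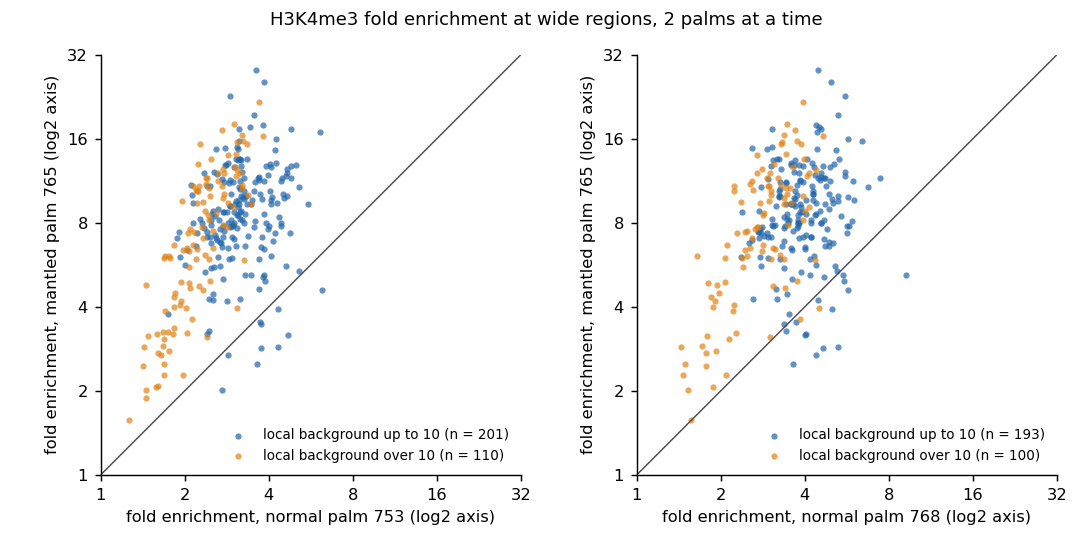
H3K4me3 fold enrichment at each wide region in mantled palm 765 (y axis) against normal palm 753 (left) and normal palm 768 (right), on log2 axes with the line of equality, colored by whether the region's median local background exceeds 10 times the average. Most points lie above the line, with 301 of 311 regions higher in 765 than in 753 and 277 of 293 higher than in 768.

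Single H3K4me3 peaks rarely reached 1000 bp in normal palms. A peak of 1000 bp or more was present at 232 wide regions in mantled palm 765, against 40 in normal palm 758, 31 in 753 and 23 in 768. The median of the widest peak was 1183 bp in 765, against 586 bp in 758, 510.5 bp in 753, 410 bp in 768, 313 bp in 767 and 291.5 bp in 764. The 765 peaks covered a median of 99.7% of the region, against 52.3% in 758, 42.1% in 753 and 32.2% in 768. At least 2 separate peaks were listed at 81 regions in mantled palm 765, against 145 in normal palm 758, 112 in 753, 67 in 768, 9 in 767 and 2 in 764.

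The width that defined the regions thus came mostly from other lists than the normal H3K4me3 ones. The widest peak lay in the H3K4me3 list of mantled palm 765 at 196 regions, in an H3K27me3 list at 112 (673 at 53, 765 at 27, 767 at 24) and in a normal H3K4me3 list at 4. From the first to the last base, the normal H3K4me3 peaks of a region spanned 1000 bp or more at 215 of the 312 regions, with a median span of 1203 bp, but a single normal H3K4me3 peak of this length was present at 59. With the normal lists alone merged, 155 regions met the rule, and palm 765 had H3K4me3 at 100% of them.

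**Figure D5:**
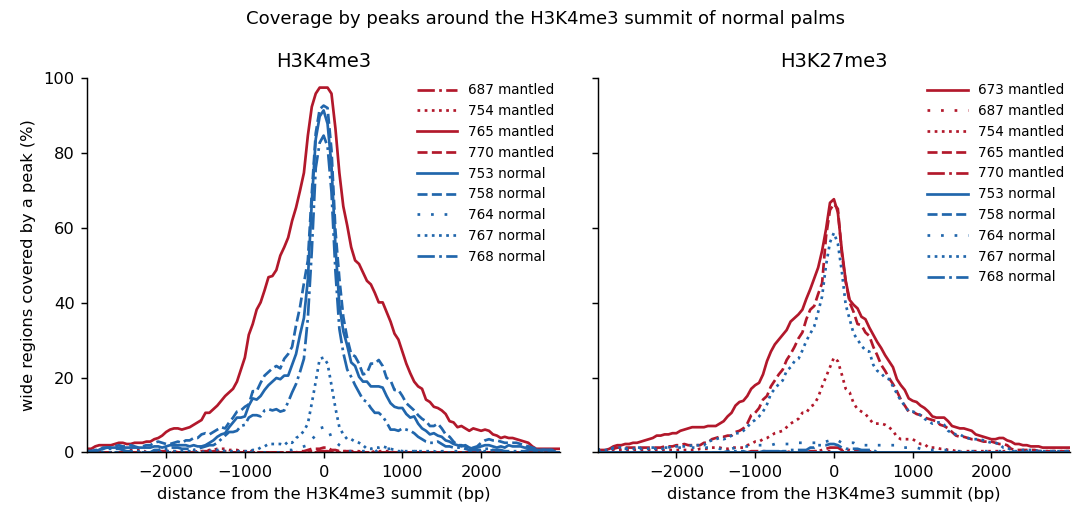
Percentage of the 312 wide regions covered by a peak (y axis) at each distance from the summit of the region's strongest normal H3K4me3 peak (x axis, bp), for H3K4me3 (left) and H3K27me3 (right), by palm. H3K4me3 of mantled palm 765 covers the summit at 97.4% of regions and has broader shoulders than the normal palms. The H3K27me3 peaks of 673, 765 and 767 cover it at 67.6%, 66.3% and 58.7%. Broad peaks within a region often cover any given point of it, and no center of the H3K27me3 peaks was measured.

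The H3K4me3 maximum lay within 200 bp between palms at most regions, but not at all. Between mantled palm 765 and normal palms 753, 758 and 768 the summits of the strongest peaks were a median of 42, 30 and 63 bp apart, and among those normal palms 44 to 54 bp. They lay within 200 bp of each other at 65.9%, 65.0% and 61.8% of the shared regions for 765 with 753, 758 and 768. The summit of the strongest normal peak was covered by a 765 peak at 304 regions (97.4%), against 289 (92.6%) in 758, 285 (91.3%) in 753 and 264 (84.6%) in 768. That summit was taken from 768 at 185 regions, 767 at 75, 753 at 42, 758 at 6 and 764 at 4. A palm covers its own summit by definition, so the normal shares are partly set by this choice. At 500 bp towards the start of the piece the shares were 54.8% in 765, against 25% in 758, 20.5% in 753 and 11.2% in 768. Of the bases under peaks of mantled palm 765 at shared regions, 49.6% also lay under a peak of normal palm 753, while 98.4% of the bases under 753 peaks lay under a 765 peak.

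The H3K27me3 peaks of these regions mostly took in the H3K4me3 maximum. They covered the normal H3K4me3 summit at 211 of the 227 marked regions in mantled palm 673 (93.0%), 207 of 227 in mantled palm 765 (91.2%), 79 of 96 in mantled palm 754 (82.3%) and 183 of 203 in normal palm 767 (90.1%). Such peaks were broad, covering a median of 76.1%, 65.8%, 44.3% and 62.9% of the region in 673, 765, 754 and 767, so many of them would take in any given point of it. In mantled palm 765, where both marks were mapped, 227 regions had both, and 88.0% of the bases under its H3K27me3 peaks also lay under its own H3K4me3 peaks. Those H3K4me3 peaks covered a median of 99.7% of the region, so a high overlap was largely set beforehand and nothing is drawn from it. With the same H3K4me3 peaks, the overlap was 88.3% for H3K27me3 of 767, 92.0% for 754 and 79.2% for 673. In normal palm 767, 68 regions had both marks: H3K27me3 was found at 75.6% of its 90 H3K4me3-marked regions and at 60.8% of the other 222.

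The H3K27me3 peaks were weak. Their median fold enrichment was 1.54 in mantled palm 673 (highest 2.22), 1.87 in 754 and 2.20 in 765, and 2.25 in normal palm 767. They were called in the caller's broad mode, which averages over the peak, while the H3K4me3 values are taken at a summit, so levels of the marks are not compared. Across the 227 regions with both marks in palm 765, the fold enrichments of its marks gave a Spearman coefficient of -0.01. In normal palm 767 the coefficient between its marks was 0.65 across 68 regions. Between marks of different palms it was 0.57 for H3K4me3 of 753 with H3K27me3 of 765 (227 regions). It was 0.78 for H3K4me3 of 758 with H3K27me3 of 754 (96 regions), and 0.07 for H3K4me3 of 765 with H3K27me3 of 767 (203 regions). Within H3K27me3 the coefficient was 0.85 between 765 and 767 (172 regions) and 0.86 between 673 and 754 (91 regions). Within H3K4me3 it was 0.61 between 753 and 758 (312 regions) and 0.45 between 765 and 753 (311 regions). Enrichment itself ran against local background, with a coefficient of -0.82 for H3K27me3 in 765. For H3K4me3 it was -0.68 in 753 and -0.47 in 765. Background was worked out by dividing by fold enrichment, so a negative coefficient is partly built in. These coefficients are descriptions across regions that share libraries, depth and background.

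Regions with more H3K27me3 libraries had a higher local background. The median background over the H3K4me3 libraries was 4.76 at the 15 regions with H3K27me3 in 0 libraries, 4.67 at 49 with 1, 5.32 at 86 with 2, 7.04 at 89 with 3, 13.9 at 70 with 4 and 14.2 at 3 with 5. H3K4me3 enrichment in normal palm 753 was about level over these groups (medians 2.67 to 3.01), and in mantled palm 765 it was 7.05 at 0 libraries and 10.2 at 4. Background exceeded 10 times the average at 111 wide regions (35.6%), beside 34.4% of narrow regions and 79.7% of the 290 regions with both marks in at least 3 normal palms each. How much of the H3K27me3 presence goes with background was not tested.

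The makeup changed with width in some libraries and little in others. From the narrowest band (1000 to under 1250 bp, 93 regions) to the widest (3000 bp and over, 25 regions), H3K27me3 of mantled palm 673 was present at 67.7%, 69.8%, 65.9%, 85.7% and 96.0% of regions, while that of mantled palm 765 was present at 78.5%, 76.2%, 69.5%, 65.3% and 68.0%. The H3K27me3 list of 673 held the longest peak at 53 regions, so the mark counted helped to set these widths. H3K4me3 enrichment in 765 stayed between 7.65 and 8.57 over the 5 bands. At the widest 25, the longest peak lay in an H3K27me3 list at 17, and the libraries labelled H3K4me3 of mantled palm 754 and normal palm 764 had a peak at 16.0% and 28.0%, against 0% and 5.38% in the narrowest band.

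Of the 5 widest regions, 3 carried weak H3K4me3 on a high background. The widest, p5.00_sc00041_p0024 from 6324 to 15438 (9115 bp), carried H3K4me3 in 7 of 9 libraries but weakly. Its fold enrichment was 1.90 and 2.88 in mantled palms 754 and 765, against 1.43, 1.29, 1.63, 3.95 and 1.44 in normal palms 753, 758, 764, 767 and 768. Its longest H3K4me3 peak was 685 bp and its longest H3K27me3 peak, in normal palm 764, was 4918 bp. The regions p5.00_sc00050_p0162 from 11660 to 20458 (8799 bp) and p5.00_sc00544_p0004 from 11468 to 17432 (5965 bp) were alike, with median enrichments of 1.88 ± 0.22 (SD, n = 5) and 1.80 ± 0.64 (SD, n = 6). These 3 regions had a local background of 46.2, 47.9 and 102 times the library average.

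The other 2 of the 5 widest had stronger H3K4me3 in mantled palm 765. At p5.00_sc00822_p0001 from 5436 to 10404 (4969 bp), 1 peak of mantled palm 765 spanned the whole region. Fold enrichment there was 9.08 in mantled palm 765 and 2.02 in mantled palm 770, against 2.97, 2.08, 4.25 and 4.13 in normal palms 753, 758, 767 and 768. H3K27me3 was also present in mantled palms 673, 754 and 765, at 1.37, 1.88 and 1.90, and in normal palm 767, at 1.99. At p5.00_sc00199_p0013 from 167 to 4843 (4677 bp) the 765 peak was 2626 bp long with an enrichment of 13.5, against 3.20, 2.96 and 3.69 in normal palms 753, 758 and 768. Its longest peak was one of H3K27me3, 3986 bp in mantled palm 765, and H3K27me3 was also present in mantled palm 673 (2045 bp) and normal palm 767 (2032 bp). The local background there was 6.84.

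The 10 regions with H3K4me3 in most libraries had it in 6 or 7 of 9, with median enrichments of 1.63 to 4.06. The highest median among them was at p5.00_sc00643_p0004 from 183 to 1655, at 4.06 ± 2.47 (SD, n = 6). Its enrichment was 9.63 and 3.89 in mantled palms 765 and 770, against 4.06, 2.62, 5.62 and 4.05 in normal palms 753, 758, 767 and 768. The strongest value of the 10 in mantled palm 765, 21.6, was at p5.00_sc00002_p0368 from 2 to 1352, against 3.68, 2.88, 2.07, 5.68 and 3.95 in normal palms 753, 758, 764, 767 and 768. The region p5.00_sc00136_p0030 from 15833 to 20143 was marked in 7 libraries at a median of 1.84 ± 0.97 (SD, n = 7), at a local background of 70.2. The remaining 5 were p5.00_sc00008_p0014 from 8760 to 10676, p5.00_sc03866_p0001 from 83 to 1250, p5.00_sc00179_p0017 from 2313 to 4133, p5.00_sc00071_p0130 from 7710 to 8843 and p5.00_sc00124_p0012 from 20987 to 22207. In each of those, 765 and normal palms 753, 758, 767 and 768 were all marked.

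H3K4me3 in a second mantled palm beside 765 was rare, at 15 regions. At p5.00_sc00568_p0003 from 7269 to 8630, enrichment was 3.23 and 5.19 in mantled palms 754 and 765, against 3.85, 3.71 and 4.19 in normal palms 753, 758 and 768, at a low local background of 1.65. At p5.00_sc00214_p0003 from 70 to 2473 it was 7.98 and 4.24 in mantled palms 765 and 770, against 3.27, 3.28 and 3.79 in normal palms 753, 758 and 768. At the 16 regions with a peak in mantled palms 687, 754 or 770, the median local background was 18.5, and it exceeded 10 at 11 of them. No wide region lacked H3K4me3 in all 4 mantled palms. The 1 region without it in 765, singled out after its values were seen, was p5.00_sc01801_p0002 from 880 to 2201, with 4.08 in mantled palm 754, against 2.82, 1.56, 1.83 and 3.58 in normal palms 753, 758, 764 and 767.

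H3K27me3 was present in 4 of the 5 mantled palms at 3 wide regions. At p5.00_sc00001_p0766 from 4208 to 5336, H3K27me3 enrichment was 1.51, 1.94, 2.0 and 2.01 in mantled palms 673, 754, 765 and 770 and 2.09 in normal palm 767. H3K4me3 enrichment at the same region was 18.1 in mantled palm 765, against 3.01, 2.12, 4.11 and 3.47 in normal palms 753, 758, 767 and 768. At p5.00_sc01134_p0001 from 3085 to 4107, H3K27me3 stood at 1.74, 2.32, 2.74 and 2.73 in the same mantled palms and 2.46 in normal palm 767, and H3K4me3 at 4.02 and 12.9 in mantled palms 687 and 765. The third was p5.00_sc00008_p0014. A further 74 regions had H3K27me3 in 3 mantled palms, of which the widest were p5.00_sc00822_p0001 and p5.00_sc00497_p0002 from 9570 to 13926. In palm 765 both marks were listed at each of these 5 regions.

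At the other end, 15 regions had no H3K27me3 peak in any of the 10 libraries. They were 1042 to 2749 bp wide, with H3K4me3 enrichments of 3.29 to 10.8 in mantled palm 765 and local backgrounds of 1.61 to 9.43. The widest was p5.00_sc00039_p0018 from 4152 to 6900, with 4.62 in mantled palm 765, against 3.69, 2.97, 4.80 and 3.16 in normal palms 753, 758, 767 and 768. A single 765 peak of 2749 bp spanned it. The next was p5.00_sc00015_p0060 from 11406 to 13546, with 8.18 in mantled palm 765, against 2.65, 2.23 and 4.67 in normal palms 753, 758 and 768.

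Wide regions were mostly alone on their piece. A piece held 2 of them in 23 cases and never more, with 349 to 19456 bp between them (median 2474 bp). On p5.00_sc00021_p0013 the region from 5945 to 7791 carried H3K27me3 in mantled palms 673, 754 and 765 and normal palm 767, and its neighbor from 8141 to 9235 carried it in none, although H3K4me3 was present at both in the same 4 libraries. Enrichment in mantled palm 765 was 12.8 at the first and 6.82 at the second. On p5.00_sc00002_p0368 the second region, from 9577 to 10753, had 12.8 in mantled palm 765 and H3K27me3 in that palm only, and on p5.00_sc00016_p0009 the regions lay from 3077 to 5057 and from 24514 to 25932.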

How the data were processed

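The regions and lists were chosen with earlier results of these data known. Per the file headers, peaks were called by the authors in each library with its own input as control, from paired-end fragments of which 1 per position was kept, at q 0.05 and with the genome size set to 221 Mb. H3K4me3 was called as narrow peaks and H3K27me3 in broad mode. Tools named in the submitters' processing notes were MACS2 2.1.1.20160309, SAMtools 1.9, Bowtie2 2.2.5 and FastQC 0.11.3. Deposited pileup is a signal that counts stacked fragments, deposited fold enrichment is the ratio of that signal to local background, and p and q are deposited as −log10. Beyond the names of the pieces, a genome build is not given in the sources used here. Positions count from 1.

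Peaks sharing 1 bp were merged with Python 3.11.15 and pandas. The strongest peak gave a region's value in each library, and medians and SDs are over libraries with a peak. Local background was worked out from pileup and fold enrichment, allowing for the caller's pseudocount of 1, and it compares peaks with one another. Tests were two-sided exact permutations over libraries, exact sign-flips over palms and Fisher's exact test with Benjamini-Hochberg adjustment, tested on simulated data. Intervals and floors (3 counts) cover counting error only. Regions were named by rank: the 10 with most H3K4me3 libraries, the 5 widest, up to 5 each with most mantled H3K27me3 and most mantled H3K4me3 libraries, 3 on each side of the width limit and the first 3 pieces with 2 wide regions. Regions without H3K27me3 in any library were added after their values were seen. Pairing of libraries comes from the palm in the labels. The deviations of the same palm's 2 libraries from their group means correlated at r = 0.191 over 9 palms. Where no peak is listed, none passed the caller's cutoff. Alternatives to the merging, width, thresholds, overlap and palms were run.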

Additional observations from a re-analysis of the deposited data

Results flagged for a closer look

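Of 16 groups of libraries examined for a sample far from the others, 6 held one, where chance gives about 1 in 20 in groups that no rule has shaped. The H3K4me3 library of mantled palm 765 had peaks at 99.7% of the wide regions, and the nearest other mantled palm had them at 2.56%. Its widest peak there had a median of 1183 bp, and the nearest other mantled palm had 354.5 bp, a value that rests on 8 regions. The H3K27me3 library of normal palm 767 had peaks at 65.1% of the wide regions, and the nearest other normal palm at 4.81%. The rule itself shapes this gap, since it allowed H3K27me3 in at most 1 normal palm and so left the other normal palms without a peak wherever 767 had one, and the same holds in part for the width of 765 peaks, which helped to choose the regions. The remaining 3 were medians of local background, at 59.8 times the average in H3K27me3 of mantled palm 687, from 1 region, with 23.1 the nearest, 40.0 in H3K4me3 of normal palm 764, with 12.2 the nearest, and 53.4 in H3K27me3 of normal palm 764, with 10.6 the nearest.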

How the results depend on the processing

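The number of wide regions depended on the choices most. It was 155 with the normal lists alone merged, 59 when a single normal H3K4me3 peak of 1000 bp was required, 156 at a merged width of 1500 bp and 81 with peaks of fold enrichment 3 or more. Leaving out 1 palm gave 90 to 436: 90 without normal palm 753, 90 without 758, 181 without 768, and 436 without 767. The difference between marks in mantled palms turned to 24.7 points at fold enrichment 3, which averaged H3K27me3 values seldom reach, and to 0.97 (exact permutation p = 0.952) at a −log10 q of 5, and ranged from -27.3 to -1.30 with 1 palm left out (exact permutation p from 0.429 to 0.971). With a replicate block over palms it was -0.160. The H3K4me3 difference between wide and narrow regions turned to -0.19 with normal lists merged, -0.25 with H3K4me3 lists merged, -1.13 with a single normal peak of 1000 bp, -0.48 when peaks had to cover 20% of the region and -0.64 when they had to cover the summit, an alternative chosen after seeing the data. It ranged from -1.42 to 1.62 with 1 palm left out, and was below 0 without 753, 758 or 765. The H3K27me3 difference turned to -5.60 at fold enrichment 3 and otherwise kept its sign, at 6.41 to 14.3 with 1 palm left out. The causes of these changes, those at fold enrichment 3 included, were not tested. Fisher calls were 0 at fold enrichment 3, at a −log10 q of 5 and with 1 palm left out, the alternatives run for them, and at these numbers of libraries a count of 0 says nothing about stability. H3K4me3 in mantled palm 765 stayed at 97.4 to 100% in the alternatives that kept that palm. With only peaks listed, and 229258 fragments in the shallowest library, absence was not detectable apart from shallow depth.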
